A study of Mus musculus with 56 samples.

Results

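The T cell receptors of mouse liver tumours that carry the lucOS antigen construct were compared between tumours driven with NICD and tumours driven with sgp53. The comparison used the receptor libraries of 3 lucOS NICD animals and of 3 lucOS sgp53 animals, 1 of which gave a pair of tumours, T1 and T2, so that 7 libraries stood for 6 animals. Barcodes called cells were taken as T cells where they held a productive, high-confidence contig of the receptor beta chain (TRB), and the TRB contig with the most unique molecular identifiers (UMIs) was kept. This gave 4311 T cells, 851 in lucOS NICD and 3460 in lucOS sgp53, of 7605 in the 15 receptor libraries of the series.

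All 7 libraries came from hepatocellular carcinomas of female mice whose genotype labels name Myc joined to lucOS, with NICD in 1 group and sgp53 in the other. MYC drives growth, and lucOS is luciferase joined to model T cell antigens. NICD is the active intracellular part of NOTCH1, and sgp53 directs Cas9 to the gene of p53, a tumour suppressor. In this model the plasmids reach hepatocytes by hydrodynamic tail vein injection, so the host T cells carry none of these changes. The other receptor libraries, used only where named, came from 2 male lucOS NICD animals and from 3 female animals each of luc NICD and luc sgp53, whose construct lacks the model antigens. Neither age nor strain is given in the labels used here.

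Each T cell assembles its receptor from V and J segments of the alpha locus and V, D and J segments of the beta locus, with bases trimmed and added where the segments join. That join, the third complementarity-determining region (CDR3), touches the antigen peptide, and cells that share it in full are usually offspring of 1 T cell that divided. Semi-invariant T cells are an exception: mucosal-associated invariant T (MAIT) cells read bacterial vitamin metabolites on MR1 with an alpha chain of TRAV1 and TRAJ33, and invariant natural killer T (iNKT) cells read lipids on CD1d with TRAV11 and TRAJ18, and both are known residents of liver. The beta locus lies on chromosome 6 and the alpha locus on chromosome 14 of the mouse, in RefSeq GRCm38.p6, the build that corresponds to the mm10 of the submitters' notes.

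The leading clonotypes carried the sequences below, read from the deposited contigs and printed as CDR3 bases. A clonotype is 1 combination of TRBV, TRBJ and CDR3 bases. Those shown are the largest TRB clonotype of each library, with capitals for the junction, meaning bases that depart from the commonest start of the V segment or the commonest end of the J segment.
NICD animal 1, TRBV16 with TRBJ2-7: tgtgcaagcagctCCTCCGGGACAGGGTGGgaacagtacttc
NICD animal 2, TRBV13-1 with TRBJ2-1: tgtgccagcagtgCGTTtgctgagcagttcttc
NICD animal 3, TRBV13-2 with TRBJ2-7: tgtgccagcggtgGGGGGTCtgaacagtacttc
sgp53 animal 1, TRBV14 with TRBJ2-7: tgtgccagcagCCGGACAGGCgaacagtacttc
sgp53 animal 2, TRBV12-1 with TRBJ2-7: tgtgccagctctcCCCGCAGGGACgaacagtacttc
sgp53 animal 3 T1, TRBV14 with TRBJ2-7: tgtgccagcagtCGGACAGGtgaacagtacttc
sgp53 animal 3 T2, TRBV13-2 with TRBJ2-5: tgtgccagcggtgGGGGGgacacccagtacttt
The junctions of these clonotypes held 4 to 17 bases. The TRBV14 clonotypes of sgp53 animals 1 and 3 encode the same protein CDR3 with different bases, and they return with the shared receptors.

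Library depth and shared cells come first, since they bear on every value. The 3 NICD libraries held 432, 151 and 268 T cells, and the sgp53 libraries held 1282 and 828 in animals 1 and 2 and 706 and 644 in T1 and T2 of animal 3. The groups did not overlap in T cells per library, with T1 and T2 averaged (283.7 ± 141.2 against 928.3 ± 315.7, SD, n = 3 animals each, two-sided exact permutation p = 0.1). With 3 animals against 3 no exact permutation p can fall below 0.1, and each p measures only the spread between these animals. CD45 positive cells were mixed with CD45 negative cells in equal numbers before loading, so the number of T cells does not measure T cell infiltration. The median TRB contig had 8 to 14 UMIs per library, and a productive alpha chain (TRA) was found in 68.7% to 75.5% of NICD T cells and in 74.6% to 87.7% of sgp53 T cells per library. Intervals are Wilson's at 95%, and limits on a count of 0 allow 3 cells; both account for the counting of cells alone.

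The 21 pairs of libraries shared 17 cell barcodes in all, and none of the shared barcodes carried the same TRB. Over pairs of libraries from different animals there were 31 matches of a TRB clonotype in every base, and 8 of TRB and TRA together. The matches of both chains came from 4 receptors, of which the largest is shown here with capitals for its junctions.
TRBV13-2 with TRBJ2-7: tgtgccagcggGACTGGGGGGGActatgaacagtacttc
TRAV14N-3 with TRAJ6: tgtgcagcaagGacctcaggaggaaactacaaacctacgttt
This beta chain, with 12 junction bases, was found in 5 cells of NICD animal 2, 1 cell of NICD animal 3, 18 cells of T1, 30 cells of T2 and 21 cells of a male lucOS NICD library. In NICD animal 2, T1 and T2 every cell with an alpha chain paired it with the alpha printed above, in 5, 16 and 27 cells. The cell of NICD animal 3 carried TRAV14-2 with TRAJ6, with the same alpha protein CDR3 but different bases at 3 positions. In the male library the printed alpha was found in 0 of the 21 cells. T cells whose TRB also occurred in another animal of the series made up 1.16% to 5.30% of NICD libraries and 2.89% to 10.7% of sgp53 libraries. Whether such receptors arose separately in each animal or passed between libraries was not tested. Leaving out the 4 receptors moved the difference in expanded share from -10.2 to -9.51 percentage points and that in TRBV12 share from -6.17 to -6.66 percentage points.

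Clonal expansion was found in every library of both groups, and the groups overlapped in how much of it there was. Without thinning, T cells whose clonotype held at least 2 cells made up 42.4% (interval 37.8% to 47.1%), 22.5% (16.6% to 29.8%) and 42.9% (37.1% to 48.9%) of the NICD libraries. The sgp53 libraries had 36.6% (34.0% to 39.3%) in animal 1, 68.4% (65.1% to 71.4%) in animal 2, 54.0% (50.3% to 57.6%) in T1 and 54.3% (50.5% to 58.2%) in T2. A larger library finds more repeats, so the share was also computed as the share expected among 151 T cells, the size of the smallest library. At that size NICD animals had 32.9%, 22.5% and 41.7% and sgp53 animals had 23.9%, 58.7% and 45.3%. The lowest value of each group lay within 2 percentage points of the other, and the highest belonged to sgp53 animal 2. The means were 32.4% ± 9.62 and 42.6% ± 17.6 (SD, n = 3 each, exact permutation p = 0.4, adjusted p = 0.756 over 17 measures).

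**Figure D1:**
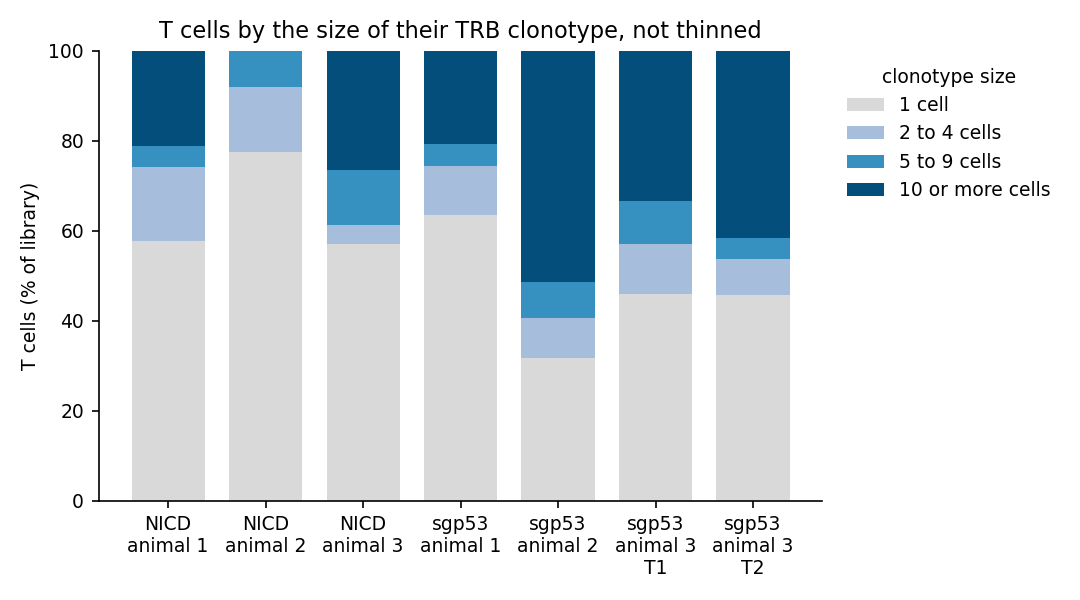
T cells of each library (vertical axis, percent of the library's T cells) split by the number of cells in their TRB clonotype, without thinning. Clonotypes of 10 or more cells, in the darkest shade, hold 0% to 26.5% of T cells in NICD libraries and 20.7% to 51.4% in sgp53 libraries, which also hold more T cells.

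The size of the leading clone varied more within the groups than between them. In NICD animal 3 a single TRBV13-2 with TRBJ2-7 clonotype held 60 of 268 T cells, 22.4% (interval 17.8% to 27.7%), the largest share of any of the 7 libraries. In NICD animal 1 the leading TRBV16 clonotype held 42 cells, 9.72%, and in NICD animal 2 the leading TRBV13-1 clonotype held 7 cells, 4.64%. The leading clonotypes of the sgp53 libraries held 97 cells (7.57%) in animal 1, 127 cells (15.3%) in animal 2, 51 cells (7.22%) in T1 and 75 cells (11.6%) in T2. The group means were 12.2% ± 9.14 and 10.8% ± 4.06 (SD, n = 3 each, exact permutation p = 0.8). The sign of this difference turned with a clonotype taken by its protein sequence, to -0.52 percentage points, and without NICD animal 3, to -3.60 percentage points.

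Almost all cells of a leading clone carried 1 alpha chain. In NICD animal 1 all 39 cells with an alpha chain paired the TRBV16 clonotype with TRAV4-3 and TRAJ43, and in NICD animal 3 all 50 paired the TRBV13-2 clonotype with TRAV3-3 and TRAJ49. In sgp53 animal 2 all 85 paired the TRBV12-1 clonotype with TRAV9D-3 and TRAJ17, and in T2 64 of 72 paired the TRBV13-2 with TRBJ2-5 clonotype with TRAV8D-2 and TRAJ39. NICD animals held 4, 0 and 2 clonotypes of 10 or more cells, and sgp53 libraries 9, 14, 10 and 7. The leading clonotypes used 5 TRBV segments, and none was found in the same bases in another of the 6 animals.

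Diversity measures that allow for depth differed by less than the spread between animals. The number of clonotypes expected in 151 T cells was 113.2, 130.0 and 96.7 in NICD animals and 124.0, 79.7 and 95.7 in sgp53 animals (113.3 ± 16.7 against 99.8 ± 22.4, SD, n = 3 each, exact permutation p = 0.4). The chance that a pair of T cells of a library share a clonotype was 1.47%, 0.371% and 5.41% in NICD animals and 0.910%, 3.68% and 2.31% in sgp53 animals (exact permutation p = 1, n = 3 each). Clonotypes of at least 5 cells in a sample of 151 held 19.5% ± 11.8 of NICD T cells and 27.98% ± 13.7 of sgp53 T cells (SD, n = 3 each, exact permutation p = 0.4). The mean CDR3 of the beta chain measured 41.4 bases in NICD animals and 41.3 bases in sgp53 animals, each clonotype counted once, with 9.65 and 9.58 junction bases. The exact permutation p of these lengths was 0.8 and 0.9 (n = 3 each). Of the 16 measures with a value per animal, 1 (6.25%) had groups that did not overlap, the TRBV12 share, described below.

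The pair of tumours of sgp53 animal 3 showed how far 2 nodules of 1 liver shared clones. T1 and T2 shared 59 clonotypes, 15.6% of the clonotypes of T1 and 18.0% of those of T2, and these held 50.1% and 57.0% of the T cells. The TRBV14 clonotype had 51 cells in each tumour, while the TRBV13-2 with TRBJ2-5 clonotype that led T2 with 75 cells had 35 in T1. Another TRBV13-2 with TRBJ2-5 clonotype had 44 cells in T1 and 2 in T2. No such pair exists for NICD.

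**Figure D2:**
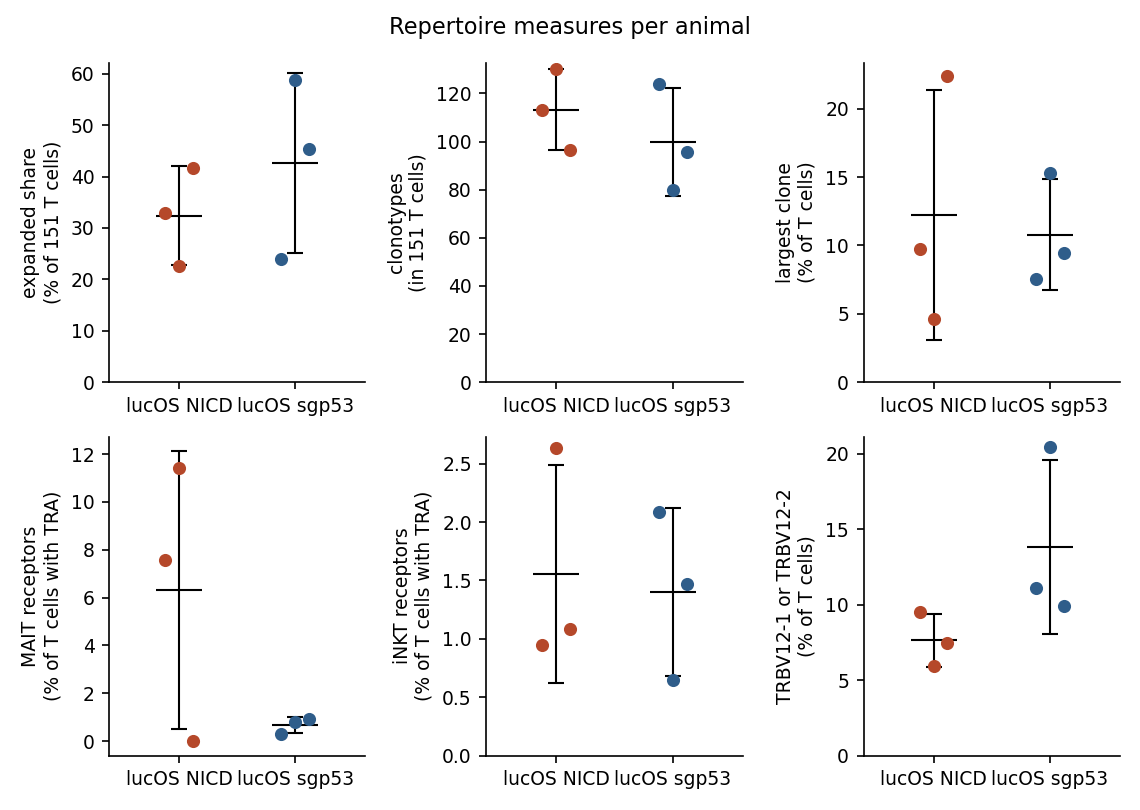
Repertoire measures of each animal (points; the pair of tumours of sgp53 animal 3 averaged), with the group mean and SD as bars; percent of T cells, or number of clonotypes, on the vertical axes. The groups overlap in the expanded share, clonotypes, largest clone, MAIT and iNKT panels and not in the TRBV12 panel.

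MAIT receptors were frequent in 2 of the 3 NICD animals and rare in every sgp53 library. Their alpha chain hardly varies, and its 3 commonest CDR3 forms are shown.
MAIT form 1, TRAV1 with TRAJ33: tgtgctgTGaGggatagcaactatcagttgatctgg
MAIT form 2, TRAV1 with TRAJ33: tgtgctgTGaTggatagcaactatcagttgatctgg
MAIT form 3, TRAV1 with TRAJ33: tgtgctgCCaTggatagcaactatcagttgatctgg
Capitals mark each position at which the 3 forms are not all alike. The first form was found in 37 of 55 MAIT receptors, in 5 of the 6 animals, and the others in 3 and 2. MAIT receptors made up 7.57% of T cells with an alpha chain in NICD animal 1 (24 cells, interval 5.14% to 11.02%) and 11.4% in NICD animal 2 (13 cells, 6.79% to 18.5%). NICD animal 3 had 0 among 184 T cells with an alpha chain, which allows a share of up to 1.63%. In the sgp53 libraries the shares were 0.284% (3 cells), 0.809% (5 cells), 0.485% (3 cells) and 1.36% (7 cells). The groups overlapped because of NICD animal 3, and the means were 6.32% ± 5.80 and 0.672% ± 0.340 (SD, n = 3 each, exact permutation p = 0.4, adjusted p = 0.756). Without NICD animal 3 the difference grew from 5.65 to 8.82 percentage points, and with the 2 male lucOS NICD animals, at 0.630% and 0.189%, it shrank to 3.29 percentage points.

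The MAIT receptors of NICD tumours were not the progeny of a few expanded cells. The 24 MAIT cells of NICD animal 1 held 23 TRB clonotypes and the 13 of NICD animal 2 held 13. Their beta chains used TRBV13 in 16 of 37 cells and TRBV19 in 13, the V beta 8 and V beta 6 families known to pair with the mouse MAIT alpha chain. In sgp53 18 MAIT cells held 18 clonotypes, 12 of them with TRBV13 and 4 with TRBV19. When each clonotype was counted once, the TRAV1 family differed between groups by 2.66 on the log2 scale (edgeR adjusted p = 3.16e-06, higher in 2 of 3 NICD animals), against 2.21 ± 0.93 (standard error) and an edgeR adjusted p of 0.289 when each cell was counted. Without NICD animal 3 it was 2.80 with each cell counted (edgeR adjusted p = 0.00638). Over the alternatives its edgeR or DESeq2 adjusted p ran from 3.16e-06 to 0.619. The groups overlapped in TRAV1, with 25, 13 and 0 clonotypes in NICD animals and 4, 9, 4 and 7 in the sgp53 libraries. TRAV1 shares of cells per animal gave an exact permutation p of 0.4 (n = 3 each). The edgeR fit takes its dispersion in part from all TRAV families, so its p does not measure the spread of TRAV1 between animals alone.

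iNKT receptors were few in both groups. The 3 commonest forms of their alpha chain, shown with capitals where they differ, encode the same protein.
iNKT form 1, TRAV11 with TRAJ18: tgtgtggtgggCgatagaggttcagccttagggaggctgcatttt
iNKT form 2, TRAV11 with TRAJ18: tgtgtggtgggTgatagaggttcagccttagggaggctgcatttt
iNKT form 3, TRAV11 with TRAJ18: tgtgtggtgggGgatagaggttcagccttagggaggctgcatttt
They were carried by 18, 12 and 11 of the 48 cells whose kept alpha chain was of this kind. iNKT receptors made up 0.946%, 2.63% and 1.09% of T cells with an alpha chain in NICD animals and 2.09%, 0.647% and 1.47% in sgp53 animals (1.55% ± 0.935 against 1.40% ± 0.722, SD, n = 3 each, exact permutation p = 0.8). The NICD values rest on 2 or 3 cells each. Of the 43 iNKT cells of sgp53, 30 used TRBV13 and 9 used TRBV1 or TRBV29, the beta segments known for these cells.

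V and J segments were tested on the number of T cells per animal with edgeR's quasi-likelihood test, T1 and T2 summed, over segments with a mean share of at least 1%. Of 12 TRBJ segments, 1 (8.33%) was called at an adjusted p under 0.05, TRBJ1-3, which was lower in NICD. It was used by 1.16%, 0.662% and 1.12% of NICD T cells and by 7.72%, 2.29% and 2.59% of sgp53 T cells. All 3 NICD animals lay below all sgp53 animals, with a log2 difference of -2.01 ± 0.63 (standard error from the test's F, edgeR adjusted p = 0.0304). The NICD values rest on 5, 1 and 3 cells, and in sgp53 animal 1 a single clonotype gave 58 of 99 cells, without which its share was 3.35%. The call held with each clonotype counted once (-1.80, edgeR adjusted p = 0.00826). Without NICD animal 1, 2 or 3 the log2 difference was -2.15, -1.88 and -2.07, near that of all animals, and the call was lost (edgeR adjusted p = 0.0992, 0.127 and 0.0905). The call was also lost without sgp53 animal 1 (-1.22, edgeR adjusted p = 0.212). It was lost too with the male lucOS NICD animals added, at 2.51% and 4.90% (-0.86, edgeR adjusted p = 0.290).

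TRBJ1-2 showed the opposite order and missed the threshold narrowly. It was used by 6.71%, 9.93% and 5.60% of NICD T cells and 3.67%, 2.54% and 2.07% of sgp53 T cells, a log2 difference of 1.38 ± 0.50 (standard error, edgeR adjusted p = 0.0504). The groups did not overlap, as for 3 of 12 TRBJ segments (25%). DESeq2 put it past the threshold (adjusted p = 0.0276), and with each clonotype counted once the difference was 0.65 (edgeR adjusted p = 0.144). TRBJ2-2, TRBJ2-3 and TRBJ2-5, the other TRBJ segments with the smallest p, had log2 differences of 0.72, 0.68 and -0.76, each with an edgeR adjusted p of 0.351. In luc tumours TRBJ1-3 was at 2.04% to 4.55% in NICD and 4.51% to 7.96% in sgp53 libraries, and TRBJ1-2 at 2.04% to 7.79% and 4.92% to 7.46%.

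No TRBV segment passed the test. Of 19 TRBV segments, 0 (0%) were called by edgeR, 1 at an unadjusted p under 0.05 and 0 by DESeq2, while 2 (10.5%) had groups that did not overlap. TRBV14 (chromosome 6, 41135167 to 41135616) had the smallest p. It was at 2.55%, 1.99% and 3.73% in NICD animals and at 12.8%, 2.90% and 9.41% in sgp53 animals (log2 difference -1.58 ± 0.61, standard error, edgeR adjusted p = 0.547). Without the largest TRBV14 clonotype of each library the shares were 1.86%, 0.671% and 0.769% in NICD and 5.65%, 1.71%, 2.14% and 1.85% in sgp53. Without sgp53 animal 2, the sgp53 animal with the lowest share, TRBV14 passed the test (-1.97, edgeR adjusted p = 0.0202). It did not pass without NICD animal 1, 2 or 3 (edgeR adjusted p = 0.684, 0.869 and 0.478). Nor did it pass with each clonotype counted once (-0.67, edgeR adjusted p = 0.300).

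The V beta 5 family, TRBV12-1 and TRBV12-2, was lower in each female NICD animal than in each sgp53 animal, but not in both male lucOS NICD animals. Its share was 9.49%, 5.96% and 7.46% in NICD animals and 11.1%, 20.4% and 9.93% in sgp53 animals (7.64% ± 1.77 against 13.8% ± 5.75, SD, n = 3 each, exact permutation p = 0.1, adjusted p = 0.756). In sgp53 animal 2 the leading clone gave 127 of 146 TRBV12-1 cells, without which TRBV12-1 was at 2.71% there. Without sgp53 animal 2 the difference shrank from -6.17 to -2.86 percentage points, and without sgp53 animal 3 it was -8.11 percentage points. The male lucOS NICD animals were at 5.92% and 11.8%, the latter above sgp53 animals 1 and 3, and with them added the difference was -5.67 percentage points (exact permutation p = 0.0893, 5 animals against 3). Of the clonotypes of 1 cell, 9.24%, 7.69% and 5.88% in NICD libraries were of this family, against 14.8%, 16.03%, 10.5% and 15.3% in sgp53 libraries. Of the expanded clonotypes it made up 8.11% (3 of 37), 0% (0 of 13) and 9.09% (1 of 11) in NICD libraries. In sgp53 libraries it made up 10.4% (8 of 77), 2% (1 of 50), 7.55% (4 of 53) and 9.09% (3 of 33) of them. These shares were lower than among clonotypes of 1 cell in each library except that of NICD animal 3, but rest on few clonotypes.

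The V beta 8 family, TRBV13, was the most used in both groups. TRBV13-1, TRBV13-2 and TRBV13-3 together held 30.6%, 39.1% and 41.8% of NICD T cells and 27.3%, 40.5% and 38.4% of sgp53 T cells, a difference of 1.76 percentage points (exact permutation p = 0.6, n = 3 each). With contigs that name TRBV12-2 and TRBV13-2 together kept apart, the means were 18.4% and 12.04%, a difference of 6.33 percentage points (exact permutation p = 0.2, n = 3 each). TRBV13-2 (chromosome 6, 41121396 to 41121832) alone held 11.6%, 17.2% and 29.5% in NICD animals and 11.8%, 30.0% and 30.2% in sgp53 animals, which overlap (edgeR adjusted p = 0.716). TRBV13-1 did not overlap, at 7.41%, 9.93% and 7.09% against 6.79%, 6.28% and 4.37% (log2 difference 0.47 ± 0.38, standard error, edgeR adjusted p = 0.547). TRBV13-3 had a log2 difference of 0.79, TRBV19 one of 1.02, TRBV12-1 one of -0.99 and TRBV12-2 one of -0.48, each with an edgeR adjusted p of 0.547. With each clonotype counted once, TRBV12-1 (-0.93) and TRBV13-3 (0.68) came nearer the threshold (edgeR adjusted p = 0.0587 each). TRBV12-2 (-0.71), TRBV13-1 (0.0553) and TRBV13-2 (0.12) then had edgeR adjusted p of 0.102, 0.856 and 0.636. Profiles of TRBV use differed by 27.4 percentage points on average between animals of different groups and by 27.7 within groups (exact permutation p = 0.4, n = 3 each).

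Alpha segments gave no call. Of 15 TRAV families, 0 (0%) were called by edgeR, 1 at an unadjusted p under 0.05 and 0 by DESeq2, and of 32 TRAJ segments, 0 (0%) were called by edgeR, 5 at an unadjusted p under 0.05 and 0 by DESeq2. The groups did not overlap for 1 TRAV family (6.67%) and 3 TRAJ segments (9.38%). That family was TRAV14, V alpha 2, at 6.94%, 10.5% and 5.43% of NICD T cells with an alpha chain and 13.9%, 14.4% and 16.7% of sgp53 T cells (log2 difference -0.999 ± 0.56, standard error, edgeR adjusted p = 0.289). With each clonotype counted once its difference was -0.28 (edgeR adjusted p = 0.959). TRAV14 was at 8.30% and 8.61% in the male lucOS NICD libraries, 7.58% to 15.7% in luc NICD libraries and 6.81% to 8.57% in luc sgp53 libraries. V alpha 2 and V beta 5 together form the OT-I receptor used in many studies of ovalbumin. Cells with both TRAV14 and TRBV12 made up 0.315% (1 cell), 0% (0 cells) and 0.543% (1 cell) of T cells with an alpha chain in NICD animals, and 1.33% (14 cells), 0.485% (3), 0.646% (4) and 0.971% (5) in the sgp53 libraries. In luc NICD libraries, without the model antigens, the shares were 1.42%, 3.92% and 2.63%, on 3, 2 and 1 cells. In luc sgp53 libraries, also without them, the shares were 0.619%, 0.428% and 1.51%, on 2, 2 and 8 cells. The male lucOS NICD libraries were at 0.420% and 0.755%, on 2 and 4 cells. No such clonotype of the lucOS libraries held more than 3 cells.

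Several high alpha shares came mostly from single clones, and that of TRAV9 came in part from one. TRAJ43 was at 15.5% in NICD animal 1, where 39 of 49 cells belonged to the leading TRBV16 clone, at 0.877% in animal 2 and at 6.52% in animal 3, against 0.853%, 2.10% and 1.15% in sgp53 animals (log2 difference 2.55 ± 0.88, standard error, edgeR adjusted p = 0.204). In NICD animal 3 a single clonotype gave 11 of the 12 TRAJ43 cells. TRAJ49 and TRAV3 were at 29.3% and 31.5% in NICD animal 3, where the leading clone gave 50 of 54 and 50 of 58 cells. In sgp53 animal 2 TRAJ17 was at 15.9%, with 85 of 98 cells from the leading clone. TRAV9 was at 27.7% there, of which that clone gave 85 of 171 cells; without it TRAV9 was at 16.1%, against 2.17% to 9.90% in the other 6 libraries with their clones. TRAV4 was at 17.7% in NICD animal 1 through the same TRBV16 clone. TRAJ7 was found in 1 cell of NICD animal 1 and in no cell of NICD animals 2 and 3, against 3.79%, 2.10% and 1.23% in sgp53 animals (edgeR adjusted p = 0.197). In sgp53 animal 1 a single clonotype gave 17 of its 40 cells. TRAJ32 was at 8.83%, 9.65% and 2.72% in NICD animals and 1.52%, 0.809% and 2.65% in sgp53 animals (edgeR adjusted p = 0.204). A single clonotype gave 20 of 28 TRAJ32 cells in NICD animal 1 and 5 of 11 in animal 2. Without the largest of each library the TRAJ32 shares overlapped, at 2.69%, 5.50% and 1.10% in NICD and 1.33%, 0.648%, 1.16% and 1.36% in sgp53 libraries. TRAV11 and TRAJ18 had log2 differences of -0.02 and -0.03, and TRAJ33 one of 1.05 (edgeR adjusted p = 0.977, 0.973 and 0.751).

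**Figure D3:**
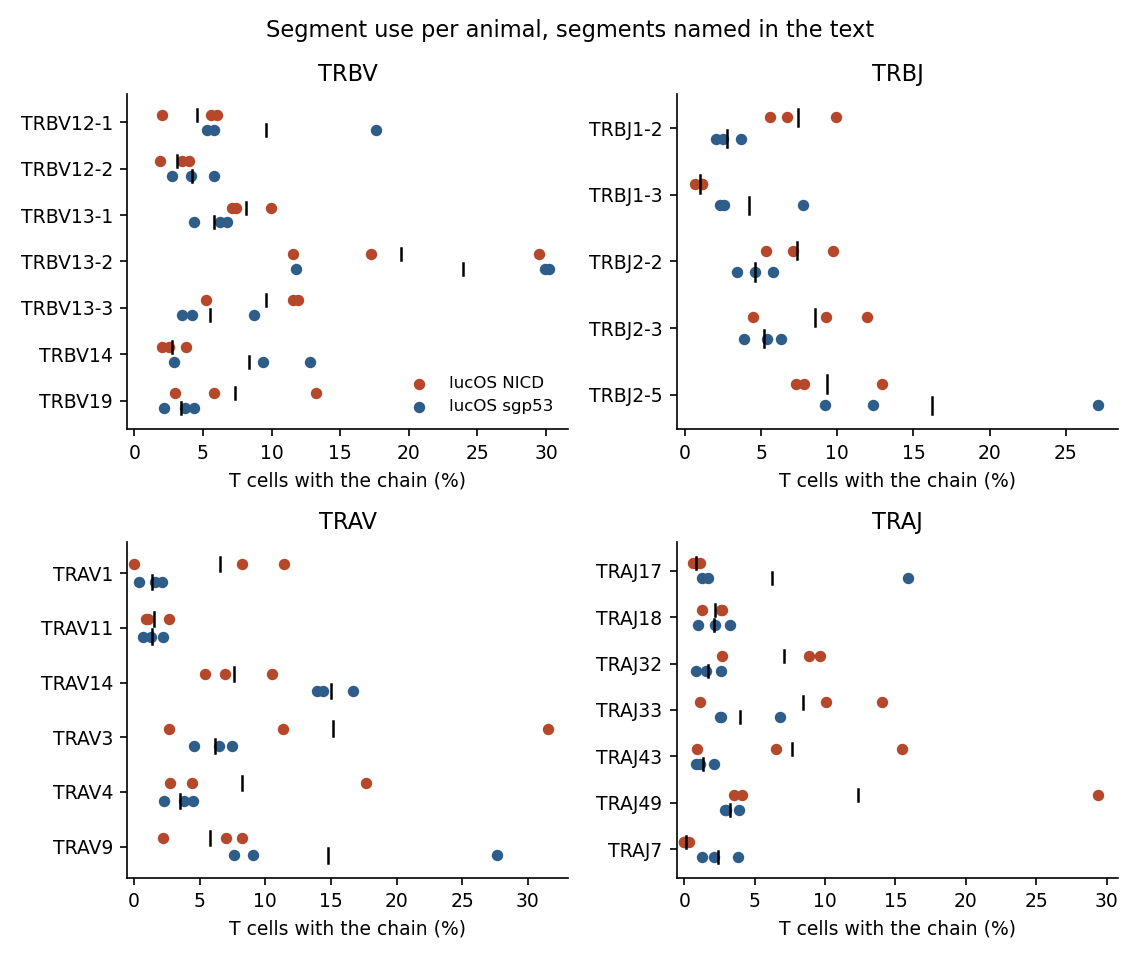
Share of T cells with the chain (horizontal axis, percent) that use each segment named in the text, per animal (points) with group means (black ticks). TRBJ1-3 is at most 1.16% in the NICD animals and at least 2.29% in the sgp53 animals, and several wide spreads, as for TRAJ49, are 1 animal's leading clone.

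Some receptors recurred between animals. Of 2367 TRB clonotypes defined by protein sequence, 36 were found in at least 2 of the 6 animals and 9 in at least 3, while 17 occurred in both groups, 18 in sgp53 animals alone and 1 in NICD animals alone. Pairs of NICD animals shared 0 to 2 clonotypes, pairs of sgp53 animals 9 to 12, and mixed pairs 0 to 8, but the sgp53 lists are longer. As a share of the lists, a pair of NICD animals had 0% to 1.54% of either list in common and a pair of sgp53 animals 1.02% to 3.91%. Per 1000000 possible pairings of clonotypes the counts came to 28.5 within NICD, 29.9 within sgp53 and 24.4 between the groups, a description with no test. Shared clonotypes had a mean of 7.49 junction bases, and those not shared 9.71.

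The most abundant shared receptor joined TRBV14 to TRBJ2-7, and the 3 animals that carried it spelled its protein CDR3 differently. Its versions are shown, with capitals where they differ, beside the alpha chain CDR3 that went with them.
TRBV14 with TRBJ2-7, sgp53 animal 3: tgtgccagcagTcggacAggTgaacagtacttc
TRBV14 with TRBJ2-7, sgp53 animal 1: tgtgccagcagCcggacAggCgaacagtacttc
TRBV14 with TRBJ2-7, NICD animal 2: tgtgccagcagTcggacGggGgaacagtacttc
TRAV10 with TRAJ16, sgp53 animal 3 and NICD animal 2: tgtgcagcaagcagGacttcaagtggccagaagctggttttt
TRAV10N with TRAJ16, sgp53 animal 1: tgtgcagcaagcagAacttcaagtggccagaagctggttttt
It held 97 cells of sgp53 animal 1 (7.57%), 51 of T1 (7.22%) and 51 of T2 (7.92%), and 2 cells of NICD animal 2 (1.32%). All 183 of its cells with an alpha chain carried the same alpha protein CDR3 with TRAJ16. The beta versions differed at 3 positions and the alpha versions at 1, none of which changes the protein, and each version was confined to 1 animal apart from the alpha of sgp53 animal 3 and NICD animal 2. It was not found in sgp53 animal 2 or in NICD animals 1 and 3.

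The other 4 of the 5 most abundant clonotypes in at least 3 animals all used TRBV13-2. One of them, with TRBJ2-7, was found in the sgp53 animals alone and in 3 versions.
TRBV13-2 with TRBJ2-7, sgp53 animal 2: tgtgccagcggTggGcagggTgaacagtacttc
TRBV13-2 with TRBJ2-7, sgp53 animal 3: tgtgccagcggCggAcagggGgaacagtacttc
TRBV13-2 with TRBJ2-7, sgp53 animals 1 and 2: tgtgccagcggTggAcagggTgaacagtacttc
It held 21 cells in sgp53 animal 1, 45 in animal 2, 2 in T1 and 28 in T2. In contrast with the TRBV14 receptor, its commonest alpha chains differed by animal, TRAV8N-2 with TRAJ7 in 17 cells of animal 1, TRAV9-2 with TRAJ27 in 23 cells of animal 2 and TRAV9-4 with TRAJ45 in 20 cells of animal 3. A TRBV13-2 with TRBJ1-5 clonotype held 45 cells of sgp53 animal 2 and 1 to 4 cells in NICD animal 1, sgp53 animal 1, T1 and T2. Of its 46 cells with an alpha chain, 45 carried the same alpha protein CDR3, all of them in sgp53 animals 2 and 3. The remaining cell, that of NICD animal 1, carried TRAV8-1 with TRAJ30 too but a different alpha protein CDR3. The base-identical receptor shown earlier, with TRAV14N-3 and TRAJ6, and a further TRBV13-2 with TRBJ2-7 clonotype of 39 cells complete the set.

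Together these 5 clonotypes held 0.231%, 5.96% and 0.373% of T cells in NICD animals and 9.98%, 13.04%, 11.2% and 18.2% in the sgp53 libraries. The members were chosen for their abundance over all 6 animals, which the larger sgp53 libraries dominate, so the order of the groups is a description only. They were found in 0 of 2104 T cells of the 6 luc libraries, which held only 49 to 691 T cells each. The pooled cells set no limit for an animal, since these clonotypes varied by animal. The TRBV14 clonotype, for one, was absent from sgp53 animal 2 as well. The clonotypes were also chosen in the lucOS animals, so their counts in lucOS and luc libraries are not a fair comparison. The male lucOS NICD libraries, which carry the model antigens, held 557 and 633 T cells. The base-identical beta chain shown earlier held 21 cells of the first, and the other clonotypes were found in neither. Whether the absence from luc libraries relates to the antigens was not tested. All 36 shared clonotypes held 3.94%, 6.62% and 2.61% of NICD T cells and 12.8%, 21.1%, 16.7% and 20.2% in the sgp53 libraries. These too were chosen in the same 6 animals, 18 of them through sgp53 animals alone and 1 through NICD animals alone. The sgp53 lists are longer, so this order is likewise a description only. Of the 32 with an alpha chain in at least 2 animals, 13 had the same alpha protein CDR3 and TRAJ in at least 2 of them.

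**Figure D4:**
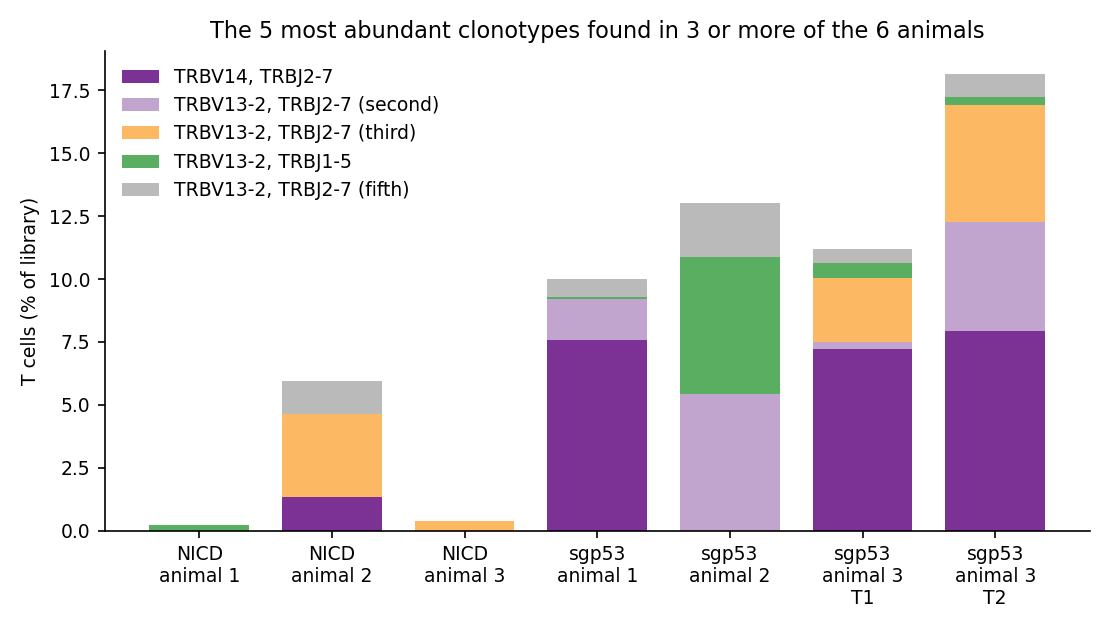
Share of each library's T cells (vertical axis, percent) held by the 5 most abundant protein clonotypes found in at least 3 of the 6 animals. The TRBV14 clonotype holds 7.22% to 7.92% of T cells in sgp53 animals 1 and 3, none in sgp53 animal 2 and 1.32% in NICD animal 2.

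Near-identical clonotypes of different animals were counted with the shared clonotypes included. Among pairs of clonotypes with the same TRBV from different animals, those with equal length and at most 1 differing residue numbered 23.3 per 1000 within NICD, 26.0 between the groups and 30.2 within sgp53 when both held at least 2 cells. They numbered 1.05, 0.878 and 1.09 per 1000 when both held 1 cell. The NICD value rests on 2 of 86 pairs, against 31 of 1028 within sgp53. No test was made, since clonotypes of an animal are not independent. Protein clonotypes spelled by more than 1 base sequence within an animal numbered 0 of 286, 0 of 130 and 0 of 164 in NICD animals and 4 of 886, 4 of 307 and 4 of 641 in sgp53 animals.

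The NICD minus sgp53 difference in lucOS tumours was also set against that in luc tumours, and no measure passed the test of this comparison. The smallest p was that of the MAIT share, where NICD minus sgp53 was 5.65 percentage points in lucOS and -3.75 in luc (exact permutation within constructs over 400 arrangements, p = 0.07, adjusted p = 0.720 over 16 measures, n = 3 animals in each of the 4 groups). In luc tumours the highest MAIT share, 10.2%, belonged to an sgp53 animal. The expanded share at 49 T cells, the size of the smallest luc library, differed by -9.56 percentage points in lucOS and -0.95 in luc (exact permutation p = 0.51, n = 3 each).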

How the data were processed

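Single-cell receptor libraries of 7 tumours were used. The authors deposited tables of assembled contigs with counts of UMIs and of reads per contig, 1 table per library, not normalized. Contig length was deposited too and not used in a test. The submitters' processing notes name the tools Cell Ranger and Seurat and the build mm10, with no version given for either tool in the sources used here. A 5′ droplet assay was loaded after dead cell removal and after CD45 positive and negative fractions were mixed equally, per the labels' protocols. Libraries totalled 29726 to 73512 UMIs over all contigs. No doublets were removed in the main analysis.

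The tables hold entries that name TRBV12-2 and TRBV13-2 together. Of 569 such clonotypes, 556 start with the first 11 CDR3 bases of TRBV13-2 and 0 with those of TRBV12-2, so they were counted as TRBV13-2. Clone measures were computed as hypergeometric expectations at 151 T cells. Commonest segment starts and ends were extended while over 50% of at least 20 distinct CDR3s agreed on a base, over all 15 libraries. iNKT and MAIT shares count any productive alpha of the cell.

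Measures were compared over animals by two-sided exact permutation (the TRBV profile one-sided), T1 and T2 averaged, with Benjamini-Hochberg adjustment over 17 measures. Segment counts were tested with edgeR 4.0.16 (common dispersion, quasi-likelihood, library size the T cells with the chain, no further scaling) and as an alternative DESeq2 1.42.0, in R 4.3.3, adjusted within each segment class. TRAV genes were summed by family. Python 3.11.15, pandas 2.3.3 and scipy 1.17.1 were used. The methods were tested on simulated data. Named segments are those called, else the 5 with the smallest p of a class, besides the TRBV12, TRBV13, iNKT and MAIT segments. Named clones are the largest of a library, those of at least 10 cells up to 5 a library, and the 5 most abundant in at least 3 animals. The members and lists were chosen with earlier results of these data known. The TRAV14 with TRBV12 count, the T cell number, the alternative without base-identical receptors and that with joint entries kept apart were chosen after seeing the data. The droplet gene expression and bulk libraries were not used here.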

Additional observations from a re-analysis of the deposited data

Results flagged for a closer look

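Contigs outside cells were not used in any comparison and held a signal of their own. Contigs assigned to TRBV26 (chromosome 6, 41227525 to 41227913) with no J segment, in barcodes not called cells, numbered 1938, 2743 and 4051 in NICD animals 1, 2 and 3. They numbered 197 and 578 in sgp53 animals 1 and 2, 692 in T1 and 522 in T2. The groups did not overlap (2911 ± 1066 against 460.7 ± 228.8, SD, n = 3 each, exact permutation p = 0.1, chosen after the values were seen). They made up 25.3% to 57.1% of all contigs in NICD libraries and 1.96% to 12.4% in sgp53 libraries. The same order was found in luc tumours, with 2371 to 4008 in NICD and 424 to 889 in sgp53 libraries, and the male lucOS NICD libraries had 2756 and 3822. Barcodes called cells held 1 such contig in the 7 libraries.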

How the results depend on the processing

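No paired analysis was possible because the labels give no replicate numbers that the groups share. Of the alternative values of measures and counts of calls, 263 kept direction and side of the threshold, 26 turned direction, 6 gained and 5 lost calls. The cause was not tested. Measures compared by exact permutation could pass the threshold only with the males added, since p cannot otherwise fall below 0.1. For them keeping the side was fixed by the design, and only the direction could vary. The direction turned for the largest clone (-0.52) and repeat probability (-0.31) with clonotypes by protein, the large clone share (0.219) with TRB and TRA together, CDR3 length (-0.0100 bases) and junction (-0.0385 bases) at 3 or more UMIs, and clonotype number (-324.8) without thinning, where library size sets it. With T2 alone it turned for repeat probability (-0.12) and TRBV13 (-0.35), and with the 2 males for the largest clone (-0.92), repeat probability (-0.24) and the TRBV profile (0.654). TRBJ calls were 2 by DESeq2 and without base-identical receptors, and 0 with the males or by exact permutation, which cannot reach the threshold here. TRAV calls were 1 with each clonotype counted once.

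Leaving out each animal in turn, NICD minus sgp53 ran from -19.6 to -2.19 (expanded share), -16.1 to -2.70 (large clones), -3.60 to 5.28 (largest clone), -1.38 to 1.14 (repeat probability), 3.43 to 25.6 (clonotypes), -0.38 to 0.50 (iNKT), 3.11 to 8.82 (MAIT), -0.48 to 0.96 (second beta), -0.10 to 0.27 bases (CDR3), -0.18 to 0.24 bases (junction), -2.27 to 5.06 (TRBV13), -8.11 to -2.86 (TRBV12) and -4.15 to 3.68 (TRBV profile). Calls ran from 0 to 1 for TRBV, TRBJ and TRAV and from 0 to 2 for TRAJ, where TRAJ43 (2.98) and TRAJ7 (-3.82) passed without sgp53 animal 2 (edgeR adjusted p = 0.0484 each).

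Among named segments on the log2 scale, each clonotype counted once turned TRBV13-2 (0.12), TRBJ2-5 (0.0132) and TRAJ49 (-0.35). The males turned TRAV11 (0.72), TRAJ18 (0.42) and TRAJ7 (0.17), and leaving out doublets turned TRAV11 (0.0866) and TRAJ18 (0.0438). Left-out animals turned TRAV11 (-0.49 to 0.46), TRAJ18 (-0.37 to 0.39) and TRAV4 (-0.0205 to 1.74). With 151 T cells in the smallest library, 1 cell is a large step in a rare segment.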
